A study of Mus musculus with 23 samples.

Results

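RNA from DC3 and DC2 cells of mice labelled TLI was compared. The libraries were selected by their labels, as 4 of DC3 and 3 of DC2 sorted from the spleen, which are 7 of the 23 libraries of the series. TLI is not expanded in the labels and commonly stands for total lymphoid irradiation. The mice were Balb/C and wild type, and each library came from cells sorted from a pool of mice. The number of mice in a pool, their age and the TLI schedule are not given in the labels. DC3 was gated as CD8- CD172lo and DC2 as CD8lo CD172hi. DC3 was available from TLI pools 1, 2, 3 and 4 and DC2 from TLI pools 1, 3 and 4. A DC2 library of TLI pool 2 was not among the 23 libraries. Pools 1 and 2 belong to batch 1 of the labels and pools 3 and 4 to batch 2. Untreated mice of the same strain gave 2 DC3 and 2 DC2 libraries, all of batch 1. The published methods describe RNA from DC1a, DC1b and DC2 only, so how the DC3 gate was drawn is known only from its label.

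Classical dendritic cells of the spleen fall into type 1 cells, which cross-present antigen to CD8 T cells and depend on the transcription factors IRF8 and BATF3, and type 2 cells, which carry SIRPα (CD172a) and present antigen mainly to CD4 T cells. Monocytes and cells derived from them share CD172a, Fc receptors, lysozyme and CSF1R with part of the type 2 compartment. The name DC3 is used elsewhere for a monocyte-like dendritic cell. Here it denotes only the sorted gate.

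The 7 libraries held between 21107794 and 35122370 counts, so that 3 counts, the most that a count of 0 allows, correspond to 0.0861 to 0.147 CPM. CPM scales a gene's counts to the library total. Levels below are CPM after TMM scaling (a between-library correction) and are not corrected for gene length, so they compare libraries and not genes. The first principal component (30.6% of the variance) separated the batches, and the second (21.6%) separated DC3 from DC2. Correlations of log2 CPM were 0.634 to 0.782 among DC3 libraries, 0.644 to 0.692 among DC2 libraries and 0.562 to 0.733 between the populations, so the ranges overlapped. Red cell precursor markers were higher in batch 1. They summed to 139022 and 18870 CPM in DC3 of pools 1 and 2 and to 44661 CPM in DC2 of pool 1. In the batch 2 libraries they summed to 353 to 1588 CPM. In bulk samples, fewer cells of a type and less RNA of a gene per cell cannot be told apart.

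The DC3 libraries carried far more RNA of the type 1 regulator Irf8 and the type 1 lectin Clec9a than the DC2 libraries, and far less RNA of genes typical of monocytes and of SIRPα-positive cells, among them Lyz2, Ace, Cybb and Fcgr3. With batch as a covariate in edgeR's quasi-likelihood fit, 33 of 13848 genes (0.238%) differed at an adjusted p under 0.05, of which 9 were higher in DC3 (0.065% of genes tested) and 24 were lower (0.173%). At an unadjusted p under 0.05, 614 genes (4.43%) were higher and 689 (4.98%) were lower. The DC3 and DC2 libraries did not overlap for 6 of the 9 higher genes and all 24 lower genes, against 4.23% (higher) and 5.57% (lower) of all genes tested. The median log2 fold change, DC3 minus DC2, over all genes was 0.04.

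The calls rested on few libraries. With any of the 3 DC2 libraries or DC3 of pool 4 left out, 0 genes passed in edgeR, with 889 to 1409 at an unadjusted p under 0.05, and without DC3 of pool 1, 2 or 3 there were 22, 20 and 6 calls, of which 13, 14 and 2 were among the 33 genes. With pool as a block in place of batch, 2 genes passed, Igkv12-44 and Igkv6-25, both higher in DC3, and 1233 had an unadjusted p under 0.05. Of the 33 genes, 1 passed with the block, and adjusted p-values of the 24 lower genes were then 0.0859 to 0.418. DESeq2 on the same 7 libraries called 1312 genes (5.33%), 416 higher (1.69%) and 896 lower (3.64%), and edgeR on all 15 TLI libraries called 198 (1.21%), 70 higher (0.427%) and 128 lower (0.78%). All 33 genes kept their direction with the block and in batch 2 alone, as did the 30 that were tested in batch 1 alone.

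**Figure D1:**
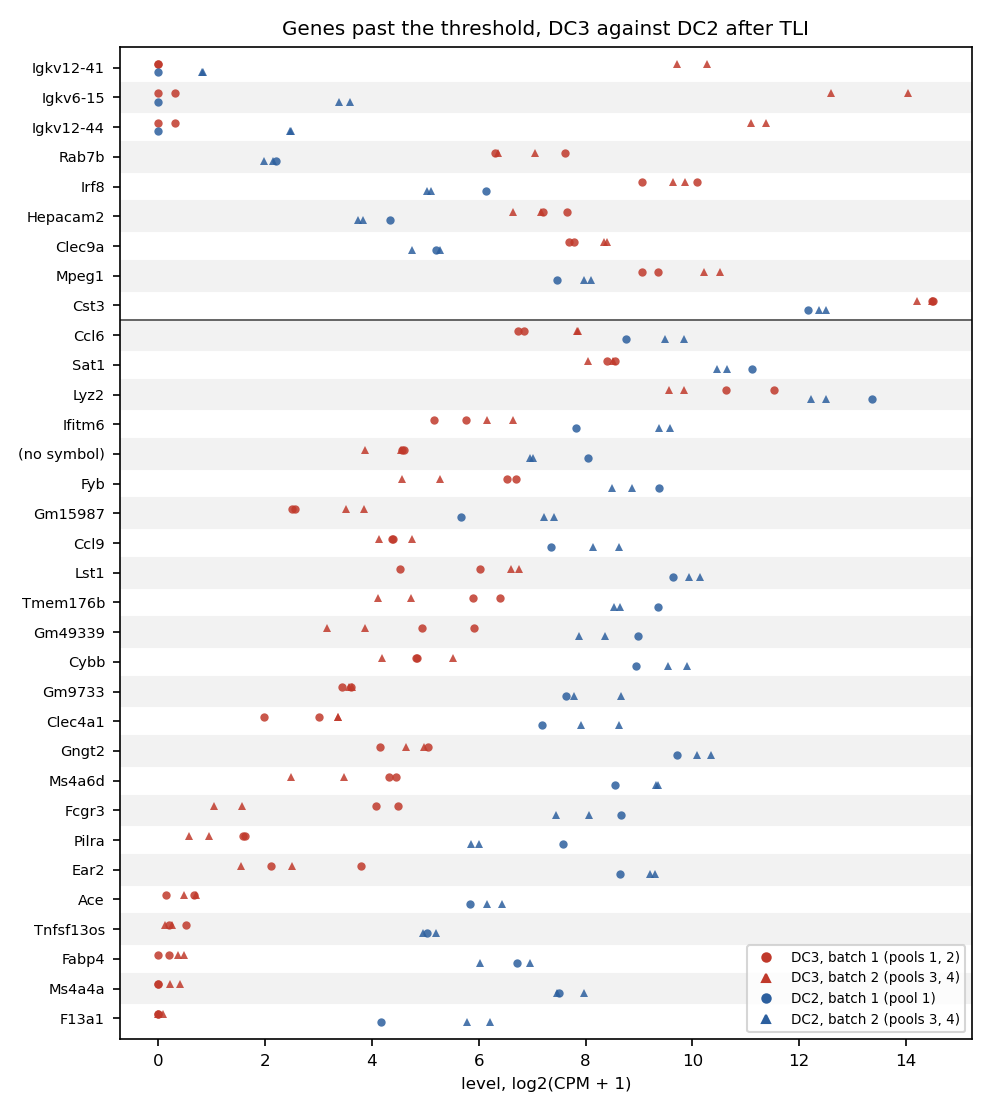
Levels on log2(CPM + 1) of the 33 genes that passed, with a point for each library (DC3 red, DC2 blue, batch 1 circles, batch 2 triangles) and a line between the higher and the lower genes. The 4 DC3 libraries of Irf8 lie between 533 and 1081 CPM and the 3 DC2 libraries between 31.7 and 69.3 CPM, and the 3 immunoglobulin segments are high in the batch 2 DC3 libraries alone.

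Irf8 encodes the transcription factor required for type 1 dendritic cells and lies at chr8:120736358-120756694 (GRCm38). In DC3 of pools 1, 2, 3 and 4 it stood at 533, 1081, 926 and 795 CPM, and in DC2 of pools 1, 3 and 4 at 69.3, 33.7 and 31.7 CPM. Every DC3 library was above every DC2 library. The means were 834 ± 232 (SD, n = 4) and 44.9 ± 21.2 CPM (SD, n = 3), and the log2 fold change was 4.24 (SE 0.43, adjusted p = 0.0337). Across the 19 alternatives it ranged from 3.53 to 4.74. In the CD8-bearing gates of the TLI mice, Irf8 averaged 825 CPM for DC1a and 225 CPM for DC1b, beside 834 CPM in DC3.

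Clec9a, a receptor for dead cells on type 1 dendritic cells, lies at chr6:129408862-129424763. It stood at 221, 206, 338 and 322 CPM in DC3 and at 36.0, 25.9 and 37.5 CPM in DC2. The groups were well separated, at 272 ± 67.9 (SD, n = 4) and 33.1 ± 6.33 CPM (SD, n = 3). The log2 fold change was 3.06 (SE 0.33, adjusted p = 0.0362). Exons of Clec9a share 184 bases with Clec1b on the same strand.

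Rab7b, a late endosomal GTPase, showed the largest difference of the higher genes whose libraries did not overlap. It stood at 77.8, 195, 131 and 81.7 CPM in DC3 and at 3.58, 3.44 and 2.95 CPM in DC2, with means 36.6-fold apart (log2 fold change 5.14, SE 0.50, adjusted p = 0.0329). Hepacam2, an adhesion molecule of the immunoglobulin superfamily, stood at 146, 200, 143 and 98.5 CPM in DC3 and at 19.2, 13.3 and 12.4 CPM in DC2 (log2 fold change 3.22, SE 0.32, adjusted p = 0.0329). Both were low in each DC2 library. Mpeg1, the pore-forming protein perforin-2, stood at 531 and 658 CPM in DC3 of batch 1, at 1462 and 1195 CPM in DC3 of batch 2, and at 175, 275 and 249 CPM in DC2 (log2 fold change 2.12, SE 0.25, adjusted p = 0.0425). Cst3, the cysteine protease inhibitor cystatin C, was abundant in both populations, at 18855 to 23371 CPM in DC3 and 4601 to 5835 CPM in DC2 (log2 fold change 2.09, SE 0.21, adjusted p = 0.0329).

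The other 3 higher genes were immunoglobulin kappa variable segments, parts of antibody light chains, and their libraries overlapped. Igkv6-15 stood at 6183 and 16894 CPM in DC3 of pools 3 and 4, at 0.245 and 0 CPM in DC3 of pools 1 and 2, and at 0, 11.1 and 9.41 CPM in DC2. Igkv12-44 (2206 and 2675 CPM in DC3 of pools 3 and 4) and Igkv12-41 (1241 and 838 CPM) had the same shape, with 0 to 0.245 CPM in DC3 of batch 1 and at most 4.58 CPM in DC2. Their differences were therefore those of batch 2 alone. Adjusted p-values were 0.0431, 0.0411 and 0.0329 with 7 libraries and 0.109, 0.0593 and 0.0692 with all 15 TLI libraries. All immunoglobulin genes together took 3.98%, 2.0997%, 5.38% and 9.14% of the counts in DC3 and 3.27%, 0.207% and 2.46% in DC2. Over the 82 immunoglobulin genes tested the median log2 fold change was 0.79, at -0.17 over 69 genes in batch 1 alone and 1.87 over 79 in batch 2 alone. Near-identical segments can share reads, so single segments are uncertain. With all of them left out before scaling, a choice made after the values were seen, 6 genes were higher and 24 lower.

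To show the letters upstream of genes that differed in opposite directions, the 250 bases before the start of 2 higher and 2 lower genes follow, from RefSeq (GRCm38.p6) and 5′ to 3′ on the gene's strand. They are Irf8 (chr8:120736108-120736357, plus strand), Clec9a (chr6:129408612-129408861, plus), Pilra (chr5:137836279-137836528, minus) and Cybb (chrX:9469325-9469574, minus). Capitals mark matches, on either strand, to any of the 6 motifs searched.
Irf8: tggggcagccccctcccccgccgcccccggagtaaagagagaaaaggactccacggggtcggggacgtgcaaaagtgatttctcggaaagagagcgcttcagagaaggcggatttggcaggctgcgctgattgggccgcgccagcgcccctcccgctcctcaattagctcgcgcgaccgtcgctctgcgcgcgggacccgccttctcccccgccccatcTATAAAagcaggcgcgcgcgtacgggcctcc
Clec9a: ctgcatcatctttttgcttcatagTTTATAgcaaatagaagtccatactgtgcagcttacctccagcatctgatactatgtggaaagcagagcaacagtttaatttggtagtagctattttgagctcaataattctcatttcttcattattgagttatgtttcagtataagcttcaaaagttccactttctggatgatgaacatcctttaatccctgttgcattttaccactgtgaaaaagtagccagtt
Pilra: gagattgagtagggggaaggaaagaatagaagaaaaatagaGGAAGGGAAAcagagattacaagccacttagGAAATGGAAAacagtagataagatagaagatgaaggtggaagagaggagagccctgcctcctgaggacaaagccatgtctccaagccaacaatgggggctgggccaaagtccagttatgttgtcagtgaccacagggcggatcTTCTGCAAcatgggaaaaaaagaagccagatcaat
Cybb: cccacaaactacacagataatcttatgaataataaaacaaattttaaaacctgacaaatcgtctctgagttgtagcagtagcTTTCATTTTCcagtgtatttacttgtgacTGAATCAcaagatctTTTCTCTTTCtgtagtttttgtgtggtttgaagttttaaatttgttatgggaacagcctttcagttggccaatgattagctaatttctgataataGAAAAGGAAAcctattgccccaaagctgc

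Among the 32 called genes with a symbol, 21 had such a window, 5 higher and 16 lower in DC3. The TATA box letters TATAAA were in 3 of the 5 windows of higher genes (Clec9a, Hepacam2 and Irf8), in 3 of 16 windows of lower genes and in 3507 of the windows of 27025 genes. The ETS-IRF composite (GGAA and GAAA with 2 bases between) was in 3 of 16 windows of lower genes (Clec4a1, Ifitm6 and Pilra), in 0 of 5 of higher genes and in 2.38% of all. The interferon response letters (GAAA and GAAA with 2 bases between) were in Cybb and Pilra, in 0 of 5 windows of higher genes and in 3.05% of all. Matches to these last motifs can overlap each other. C/EBP letters (TTGCNNAA) were in 4 of 16 windows of lower genes and 9.55% of all, AP-1 letters (TGANTCA) in 2 of 16 and 6.85%, and PU.1 letters (GAGGAAGT) in 0 of 21 and 2.42%. These are matches of letters and not sites of binding, and the windows are few.

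Surface receptors among the 24 genes lower in DC3 included Pilra, Fcgr3 and Clec4a1. Pilra, an inhibitory paired receptor that binds sialylated proteins, stood at 2.01, 2.06, 0.486 and 0.921 CPM in DC3 and at 190, 63.4 and 56.8 CPM in DC2 (log2 fold change -6.44, SE 0.43, adjusted p = 0.0190). Fcgr3, an activating receptor for IgG, stood at 21.5, 15.95, 1.94 and 1.06 CPM in DC3 and at 405, 267 and 174 CPM in DC2 (log2 fold change -6.20, SE 0.75, adjusted p = 0.0468). Neither gene overlapped between the populations, and within DC3 Fcgr3 was lower in the batch 2 libraries. Clec4a1, a C-type lectin of the DCIR family, stood at 2.94, 7.03, 9.33 and 9.24 CPM in DC3 and at 144, 241 and 393 CPM in DC2 (log2 fold change -4.99, SE 0.42, adjusted p = 0.0329). Gm49339 (-4.23), whose exons overlap the inhibitory receptor genes Lilrb4a and Lilr4b on the same strand, cannot be separated from them. Pilra exons overlap Zcwpw1 on the other strand, and the library kit does not mark strand.

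Ms4a4a and Ms4a6d encode membrane-spanning 4A proteins found in macrophages and monocytes. Ms4a4a stood at 0, 0, 0.162 and 0.316 CPM in DC3 and at 181, 176 and 249 CPM in DC2 (log2 fold change -10.83, SE 1.07, adjusted p = 0.0329). Ms4a6d stood at 19.1, 20.8, 4.60 and 10.2 CPM in DC3 and at 375, 656 and 636 CPM in DC2, with means 40.7-fold apart (log2 fold change -5.64, SE 0.62, adjusted p = 0.0362). Ms4a4a was thus nearly absent from the DC3 libraries, while Ms4a6d was low but present in each.

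Genes used as monocyte markers were lower in DC3 too. F13a1, a coagulation factor subunit made by monocytes, was at or under 3 counts in every DC3 library and at 17.0, 54.3 and 73.1 CPM in DC2 (adjusted p = 0.0362). The DC2 mean of F13a1 was 440-fold the mean DC3 floor of 3 counts per library. For DC2 of pool 1 alone the fold over that floor was smaller, and the floor covers counting error only. Ace, angiotensin-converting enzyme, stood at 0.107 to 0.633 CPM in DC3 and at 56.1, 70.0 and 86.0 CPM in DC2 (log2 fold change -7.25, SE 0.77, adjusted p = 0.0362). Lyz2, lysozyme, was present in both populations, at 1578, 2947, 760 and 918 CPM in DC3 and 10617, 4799 and 5825 CPM in DC2 (log2 fold change -2.48, SE 0.27, adjusted p = 0.0362). Fabp4, a fatty acid carrier of macrophages, stood at 0 to 0.389 CPM in DC3 and at 104, 123 and 63.8 CPM in DC2 (log2 fold change -8.95, SE 1.09, adjusted p = 0.0471). Of these, only Lyz2 was substantial in DC3. Ear2, an eosinophil-associated ribonuclease also found in monocytes, stood at 1.91 to 12.9 CPM in DC3 and at 400, 587 and 626 CPM in DC2 (log2 fold change -6.80, SE 0.80, adjusted p = 0.0431).

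Cybb encodes the catalytic subunit of the phagocyte NADPH oxidase. It stood at 27.7, 27.4, 17.2 and 45.0 CPM in DC3 and at 489, 958 and 744 CPM in DC2 (log2 fold change -4.51, SE 0.41, adjusted p = 0.0329). Gngt2, a G protein gamma subunit, stood at 32.2, 16.7, 24.05 and 30.6 CPM in DC3 and at 840, 1297 and 1083 CPM in DC2 (log2 fold change -5.28, SE 0.35, adjusted p = 0.0190). For both genes every DC3 library lay below every DC2 library. Exons of Gngt2 overlap Abi3 on the other strand. Over 19 alternatives Gngt2 kept a log2 fold change between -5.50 and -5.10, and Cybb between -4.86 and -4.15.

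Both chemokines that passed were CC chemokines attracting myeloid cells. Ccl6 stood at 114, 105, 231 and 228 CPM in DC3 and at 431, 918 and 714 CPM in DC2 (log2 fold change -1.87, SE 0.21, adjusted p = 0.0399). Ccl9 stood at 19.9, 19.8, 26.0 and 16.6 CPM in DC3 and at 163, 281 and 393 CPM in DC2 (log2 fold change -3.60, SE 0.37, adjusted p = 0.0337). Ccl6 showed the smallest difference among the 24 lower genes. The remaining protein-coding genes were Lst1 (log2 fold change -3.70), a myeloid leukocyte protein, Tmem176b (-3.80), Fyb (-3.36), an adaptor of integrin signalling, Ifitm6 (-2.78), Sat1 (-2.39), the rate-limiting enzyme of polyamine breakdown, and Gm9733 (-4.56). Adjusted p-values of these 6 were 0.0265 to 0.0468. The antisense genes Tnfsf13os (-7.39) and Gm15987 (-3.57) and a gene without a symbol, ENSMUSG00000089672 (-3.09), completed the 24. Exons of 9 of the 24 overlap another gene, and without strand their reads cannot be told apart from those of a partner on the other strand.

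The genes of the sorted surface proteins were compared with the gates. Sirpa, which encodes CD172a, stood at 0.539, 4.83, 1.04 and 6.30 CPM in DC3 and at 34.0, 8.78 and 281 CPM in DC2. The order followed the CD172lo and CD172hi gates without overlap, but the DC2 libraries were far apart and the difference did not pass (log2 fold change -4.71, SE 1.47, adjusted p = 0.374). Cd8a was low in both, at 0.230 to 6.22 CPM in DC3 and 0.251 to 0.985 CPM in DC2. In the TLI mice DC1a averaged 589 CPM and DC1b 193 CPM. Cd8a did not follow the order of the CD8- and CD8lo gates, as the populations overlapped with a positive log2 fold change. Untreated means of Cd8a were 19.1 CPM in DC3 and 0.473 CPM in DC2. Itgax, which encodes CD11c, stood at 77.0 to 127 CPM in DC3 and 214 to 296 CPM in DC2 (log2 fold change -1.34, adjusted p = 0.122, and 0.0137 with all 15 TLI libraries). The class II genes H2-Aa and H2-Ab1 overlapped between the populations, with log2 fold changes of 0.16 and 0.26. Ptprc (CD45) stood at 393 to 551 CPM in DC3 and 1202 to 3311 CPM in DC2 (adjusted p = 0.141).

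Most markers of type 1 dendritic cells were present in the CD8- DC3 gate, with Cd8a low and Itgae not found in every library. All 18 listed markers were tested, 2 passed (Irf8 and Clec9a) and 14 did not overlap, all higher in DC3, against 4.23% of all genes. All 18 had positive log2 fold changes, with a median of 3.14 beside 0.04 over all genes, and the median was 3.05 in batch 1 alone and 2.81 in batch 2 alone. Summed levels of the list were 4764 to 9998 CPM in DC3 and 695 to 1093 CPM in DC2. With all 15 TLI libraries 10 of the 18 passed, all higher, beside 0.427% of all genes. The list was chosen with earlier results of these data known.

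Several type 1 markers outside the naming rule were chosen after their values were seen. Xcr1, the receptor for XCL1 that defines type 1 cells, stood at 192, 435, 192 and 266 CPM in DC3 and at 4.14, 18.5 and 34.1 CPM in DC2 (adjusted p = 0.164). Naaa, a lysosomal amidase, stood at 784, 1611, 805 and 893 CPM in DC3 and at 53.7, 90.7 and 29.2 CPM in DC2 (adjusted p = 0.0567). Tlr3, the endosomal sensor of double-stranded RNA, stood at 75.2, 152, 255 and 242 CPM in DC3 and at 4.37, 1.00 and 0.910 CPM in DC2 (adjusted p = 0.083). All 3 were separated between the populations but did not pass, and with all 15 TLI libraries each passed. Batf3, needed for type 1 development, stood at 140 to 223 CPM in DC3 and 43.7 to 105 CPM in DC2, without overlap (adjusted p = 0.435). Integrin alpha E (Itgae) was at 0 in DC3 of pool 4 and at 6.22 to 22.3 CPM in the other DC3 libraries, against 0 to 0.394 CPM in DC2. Langerin (Cd207), at 15.6 to 193 CPM in DC3 and 0.402 to 3.26 CPM in DC2, averaged 987 CPM in DC1a.

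Markers of type 2 dendritic cells lay on the other side. Of 18 listed, 17 were tested and 0 passed in edgeR. At an unadjusted p under 0.05, 9 were lower in DC3, against 4.98% of all genes, and none were higher. Of all 18 listed, 7 passed in DESeq2, all lower, against 3.64% of all genes. Here and below, DESeq2 counts cover all listed members, also those not tested in edgeR. In 6 the libraries did not overlap, all lower in DC3, against 5.57% of all genes, and the median log2 fold change was -2.79. Summed levels were 1009 to 1533 CPM in DC3 and 3132 to 5607 CPM in DC2. Cd209a, a lectin of the DC-SIGN family, stood at 178, 210, 101 and 175 CPM in DC3 and at 790, 1589 and 1307 CPM in DC2 (adjusted p = 0.0623). S100a4 stood at 129 to 302 CPM in DC3 and 729 to 1650 CPM in DC2 (adjusted p = 0.0933). DC3 thus held Cd209a and S100a4 RNA at levels above the DC1a means of 20.1 and 9.79 CPM. Irf4, the type 2 regulator, overlapped, at 0.201 to 21.7 CPM in DC3 and 10.6 to 110 CPM in DC2, and Clec12a did too, with a log2 fold change of -0.11.

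**Figure D2:**
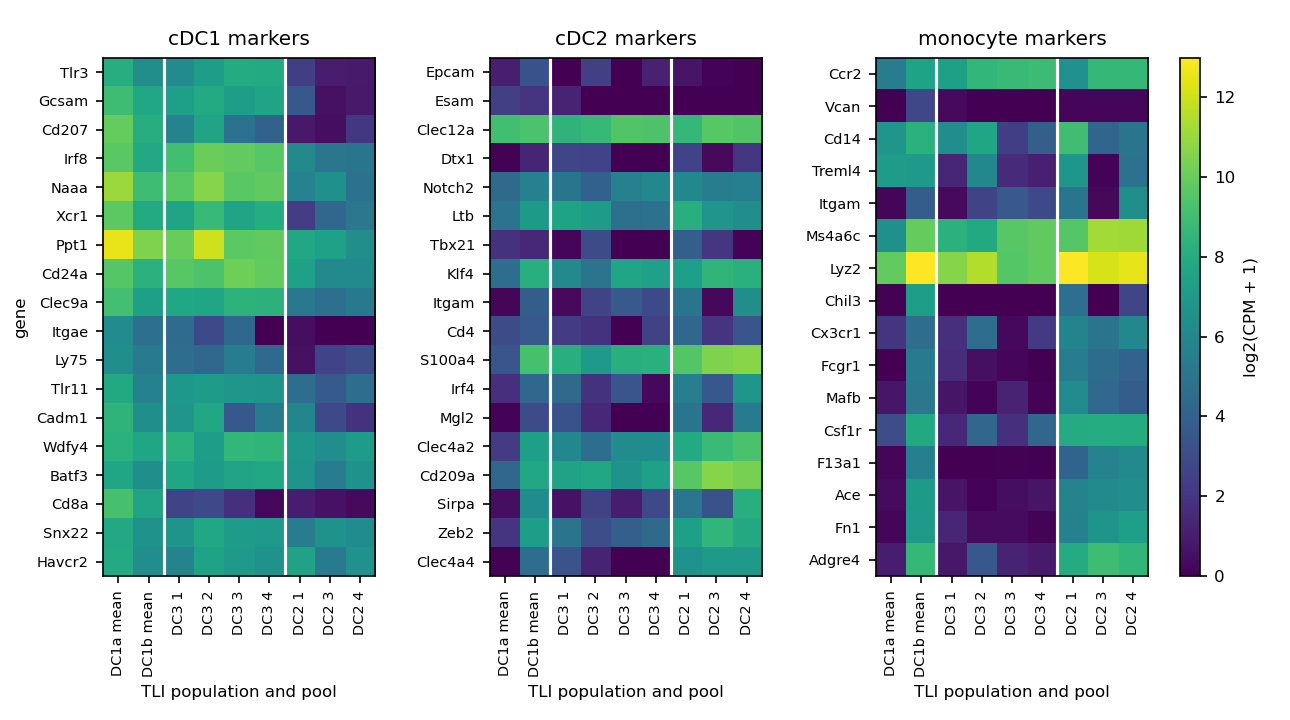
Levels on log2(CPM + 1), as colour, of the markers of type 1 (cDC1) and type 2 (cDC2) dendritic cells and of monocytes, with a row for each gene and a column for each DC3 and DC2 library after TLI and for the means of DC1a and DC1b. Xcr1 is at 192 to 435 CPM in DC3 and 4.14 to 34.1 CPM in DC2, and Csf1r at 1.77 to 18.6 and 254 to 265 CPM.

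Of 16 monocyte markers listed, 14 were tested and 3 passed, all lower in DC3 (F13a1, Ace and Lyz2), against 0.173% of all genes, and 9 did not overlap, against 5.57%. The median log2 fold change was -4.21, at -4.08 in batch 1 alone and -4.55 in batch 2 alone. Csf1r, the receptor for the macrophage growth factor, stood at 1.77, 18.6, 2.50 and 18.6 CPM in DC3 and at 254, 265 and 255 CPM in DC2 (adjusted p = 0.169). Ccr2, the receptor that brings monocytes out of the marrow, was an exception, at 169 to 482 CPM in DC3 and 93.7 to 408 CPM in DC2 (log2 fold change 0.70, adjusted p = 0.694). Of 12 macrophage markers tested, 0 passed in edgeR and 8 had an unadjusted p under 0.05, all lower, against 4.98% of all genes. Of all 16 macrophage markers listed, 9 passed in DESeq2, 8 of them lower (3.64% of all genes) and 1 higher (1.69%). Their sum was 21.1 to 168 CPM in DC3, 333 and 395 CPM in DC2 of pools 3 and 4, and 3202 CPM in DC2 of pool 1.

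Signals of other cells accompanied single libraries. Neutrophil markers summed to 2198 CPM in DC2 of pool 1, 216 and 133 CPM in DC2 of pools 3 and 4, and 4.03 to 98.3 CPM in DC3. Natural killer cell markers summed to 5140 and 1444 CPM in DC3 of pools 1 and 2, and to 249 to 740 CPM in the other libraries. T cell markers summed to 874 and 350 CPM in DC3 of pools 1 and 2 and to 9.75 to 202 CPM elsewhere. Of these lists, 6 neutrophil, 13 natural killer and 11 T cell markers were tested, and 0 passed in edgeR, with 2, 5 and 0 at an unadjusted p under 0.05 and 7, 3 and 2 past in DESeq2, which tested more members. Marker lists of all classical dendritic cells, precursors, plasmacytoid and mature dendritic cells, and B, plasma, red, basophil and platelet cells also had 0 members past in edgeR, with 0 to 6 members of each at an unadjusted p under 0.05 and 0 to 5 past in DESeq2. Over all genes, 4.43% were higher and 4.98% lower at an unadjusted p under 0.05, and 1.69% and 3.64% in DESeq2. Plasma cell markers summed to 8053, 1476, 2438 and 4289 CPM in DC3 and to 5579, 537 and 2282 CPM in DC2. The part of these cells in the differences between DC3 and DC2 was not tested.

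**Figure D3:**
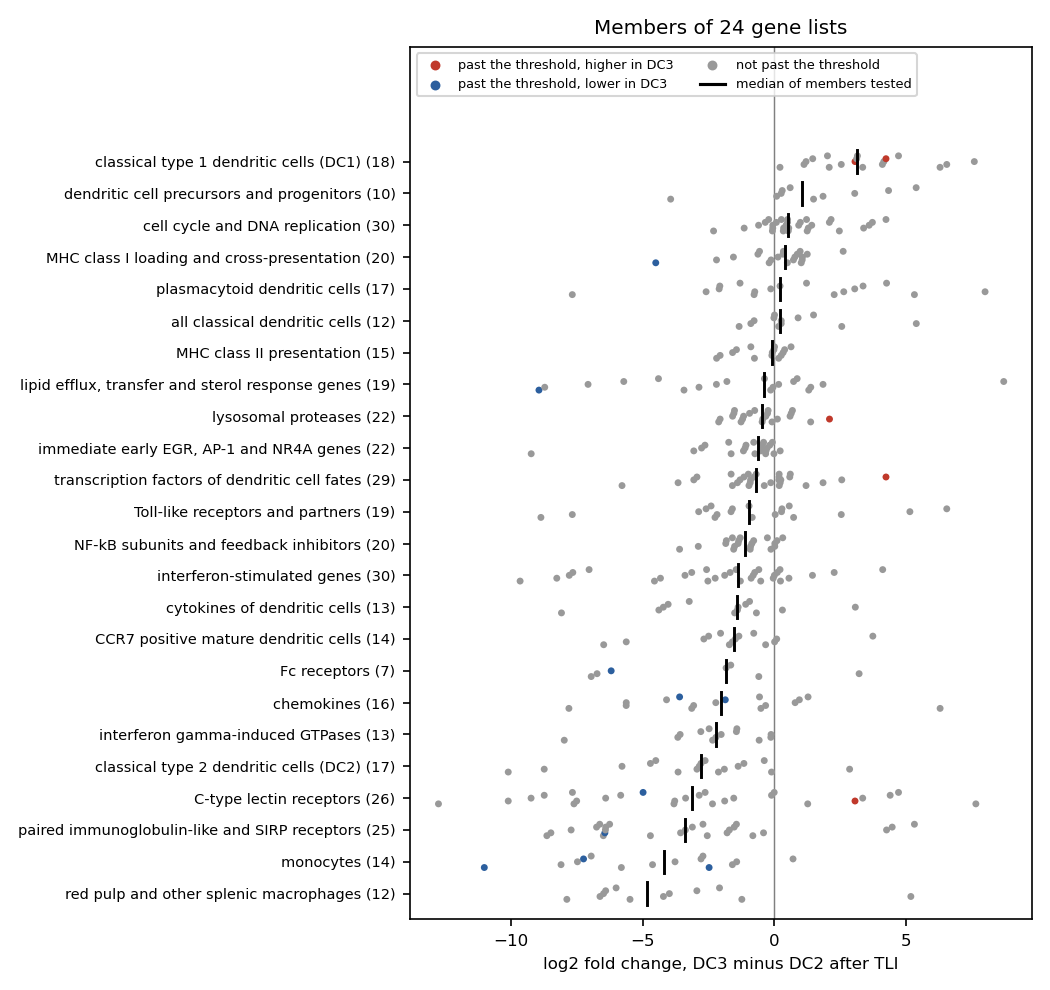
Log2 fold change, DC3 minus DC2 after TLI, of each tested member of 24 gene lists, with the number tested in brackets and a bar at the median. Type 1 markers have a median of 3.14 and monocyte markers of -4.21, and few single members passed the threshold.

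Of 26 C-type lectins tested, 1 passed in each direction (Clec9a higher, Clec4a1 lower), 5 did not overlap with higher values in DC3 (4.23% of all genes) and 14 with lower values (5.57%), and the median was -3.12. The calls compare with 0.065% and 0.173% of all genes. Clec4a2 stood at 24.7 to 79.7 CPM in DC3 and 245 to 615 CPM in DC2, and Clec4e, which senses mycobacterial glycolipid, at 0 to 0.324 CPM in DC3 and 22.6 to 33.2 CPM in DC2 (adjusted p = 0.083 and 0.136). Cd209c was at 0 in every DC3 library and at 21.5 to 35.4 CPM in DC2, and its adjusted p was 0.121. Of 19 Toll-like receptor genes and partners tested, 0 passed in edgeR. At an unadjusted p under 0.05, 4 were higher and 8 lower, against 4.43% and 4.98% of all genes. Of all 20 listed, 3 passed higher and 2 lower in DESeq2, against 1.69% and 3.64% of all genes. Besides Tlr3, Tlr11, a profilin sensor, stood at 106 to 140 CPM in DC3 and 11.995 to 24.9 CPM in DC2 (adjusted p = 0.083). Tlr8 was at 0 in DC3 of pools 1 to 3 and 0.144 CPM in pool 4, against 8.50 to 23.7 CPM in DC2, and Tlr7 was at 0 to 11.9 CPM in DC3 and 48.6 to 92.2 CPM in DC2.

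Paired immunoglobulin-like and SIRP receptors gave 25 tested members, 1 past the test (Pilra), 16 that did not overlap with lower values in DC3 (5.57% of all genes) and 1 with higher values (4.23%). The call compares with 0.173% of all genes. The median was -3.38, at -4.09 in batch 1 alone and -3.41 in batch 2 alone. Sirpb1a stood at 5.93, 7.99, 0.292 and 7.48 CPM in DC3 and at 416, 504 and 351 CPM in DC2 (adjusted p = 0.0926). Sirpb1b and Sirpb1c had the same order, but the 3 are near-identical and their reads are uncertain. Among 7 Fc receptor genes tested, Fcgr3 passed (0.173% of all genes) and 5 did not overlap (5.57%), all lower in DC3. Fcgr4 stood at 0.576 to 8.53 CPM in DC3 and 45.3 to 197 CPM in DC2 (adjusted p = 0.0761), and the common gamma chain Fcer1g at 417 to 1081 CPM in DC3 and 2234 to 3269 CPM in DC2 (adjusted p = 0.164).

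Of 16 chemokine genes tested, 2 passed (0.173% of all genes) and 4 did not overlap (5.57%), all lower in DC3, with a median of -2.05. Ccl2 stood at 3.86 to 16.6 CPM in DC3 and 140 to 215 CPM in DC2 (adjusted p = 0.083). Among 14 chemokine receptors tested 0 passed in edgeR, and the median was 0.40. At an unadjusted p under 0.05, 2 were higher and 4 lower, against 4.43% and 4.98% of all genes. Of all 22 receptors listed, 2 passed higher and 2 lower in DESeq2, against 1.69% and 3.64% of all genes. Of 13 cytokines tested 0 passed in edgeR and 5 had an unadjusted p under 0.05, all lower, against 4.98% of all genes. Of all 24 cytokines listed, 1 passed higher and 2 lower in DESeq2, against 1.69% and 3.64% of all genes. Tnf stood at 0.745 to 6.77 CPM in DC3 and 21.4 to 55.1 CPM in DC2. Il1b overlapped across batches, with 1497 and 2531 CPM in DC3 of batch 1 and 228 and 158 CPM in DC3 of batch 2. In DC2 of pools 1, 3 and 4 it stood at 4413, 498 and 675 CPM. Within each batch every DC3 library lay below every DC2 library for Il1b, which did not pass.

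Of 29 transcription factors of dendritic cell fates, 1 passed (Irf8, against 0.065% of all genes), 4 did not overlap with higher values in DC3 (4.23%) and 2 with lower values (5.57%), so the lower count was near that of all genes. Zeb2, which represses the type 1 fate, stood at 30.6, 7.57, 14.4 and 21.6 CPM in DC3 and at 165, 377 and 225 CPM in DC2 (log2 fold change -3.66, adjusted p = 0.0933). Id2 stood at 1294 to 2772 CPM in DC3 and at 1259, 291 and 379 CPM in DC2 (adjusted p = 0.416). Zbtb46, expressed by classical dendritic cells and not by monocytes, stood at 64.1 to 134 CPM in DC3 and 8.15 to 31.9 CPM in DC2 (adjusted p = 0.273). These 3 did not pass, though no library of one population reached the other. In the Notch list, 23 were tested and 0 passed in edgeR. At an unadjusted p under 0.05, 1 was higher (4.43% of all genes) and 3 lower (4.98%), so the higher count was near that of all genes. Of all 30 listed, 1 passed higher and 2 lower in DESeq2, against 1.69% and 3.64% of all genes. The Notch target Hes1 stood at 1.52 to 7.94 CPM in DC3 and 83.4 to 203 CPM in DC2 (adjusted p = 0.083).

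Of 15 class II genes tested 0 passed in edgeR, and the median was -0.08. At an unadjusted p under 0.05, 4 were lower, against 4.98% of all genes, and none were higher. In DESeq2 2 of 16 passed, both lower, against 3.64% of all genes. Ctss, the protease that trims the invariant chain, stood at 767, 1059, 605 and 595 CPM in DC3 and at 2372, 2172 and 1886 CPM in DC2 (log2 fold change -1.59, adjusted p = 0.0567). Of 20 class I and cross-presentation genes, 1 passed (Cybb, lower, against 0.173% of all genes), and the median of 0.41 was positive. B2m stood at 1612 to 4475 CPM in DC3 and 6600 to 8908 CPM in DC2 (adjusted p = 0.277). Of 22 lysosomal protease genes and inhibitors, Cst3 alone passed (higher, against 0.065% of all genes), and the median was -0.46. Of 19 lipid transfer and sterol genes, 1 passed (Fabp4, lower in DC3, against 0.173% of all genes).

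The counts in this paragraph compare with the following shares. Over all genes, 4.43% were higher and 4.98% lower at an unadjusted p under 0.05, and 1.69% and 3.64% in DESeq2. Interferon-stimulated genes had a median of -1.38 over 30 tested, with 0 past the test in edgeR. Of these, 7 had an unadjusted p under 0.05 (all lower) and 5 passed in DESeq2 (all lower). Libraries did not overlap for 10 (5.57% of all genes), all lower in DC3. Rtp4 stood at 17.6, 7.14, 0.324 and 0.345 CPM in DC3 and at 175, 282 and 136 CPM in DC2 (adjusted p = 0.156). All 13 interferon gamma-induced GTPases tested had negative log2 fold changes, with a median of -0.43 in batch 1 alone and -3.42 in batch 2 alone, and 0 passed in edgeR, 6 had an unadjusted p under 0.05 and 2 passed in DESeq2. Immediate early genes, which stress of handling can induce, were negative in 21 of 22, with a median of -0.63, and 0 passed in edgeR, 8 had an unadjusted p under 0.05 (all lower) and 2 passed in DESeq2. Cell cycle genes had a median of 0.51 over 30, with 4 that did not overlap (4.23% of all genes), all higher in DC3, and 0 passed in edgeR, 4 had an unadjusted p under 0.05 and 3 passed in DESeq2. Of the BCL2 family 15 were tested and 0 passed in edgeR, with 1 higher and 3 lower at an unadjusted p under 0.05. In DESeq2 1 passed higher and 2 lower. Without overlap, 1 was higher in DC3 (4.23% of all genes) and 3 were lower (5.57%). The lower members were Bcl2a1a, Bcl2a1b and Bcl2a1d, at 114 to 562 CPM in DC3 and 686 to 1092 CPM in DC2. These anti-apoptotic genes are near-identical, so they are not separate observations. For p53 targets the median was -0.25, and 0 of 18 passed in edgeR. Of these, 1 was lower at an unadjusted p under 0.05, and 1 of 20 listed passed in DESeq2. Both counts were near those of all genes. The lists of costimulatory ligands, cytokine receptors, integrins, NF-kB genes, complement and scavenger receptors, matrix metalloproteinases and tolerance-linked enzymes had 0 members past in edgeR, with 1 to 9 of each at an unadjusted p under 0.05 and 2 to 9 past in DESeq2.

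The same contrast in untreated mice showed how far these differences were also present without TLI. In the fit of all 23 libraries 164 genes (0.837%) passed, of which 74 (0.378%) were higher and 90 (0.459%) were lower in untreated DC3 than in untreated DC2. Of the 9 genes higher after TLI, 8 had the same sign and 6 passed in untreated mice, and of the 24 lower genes all had the same sign and 18 passed. Irf8 had a log2 fold change of 5.60 in untreated mice (adjusted p = 0.00835) and Cst3 of 2.77. F13a1 was an exception in size, at -2.12 in untreated mice (adjusted p = 0.613), and its interaction with treatment did not pass. The untreated libraries were all of batch 1, and batch was estimated from the TLI libraries.

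**Figure D4:**
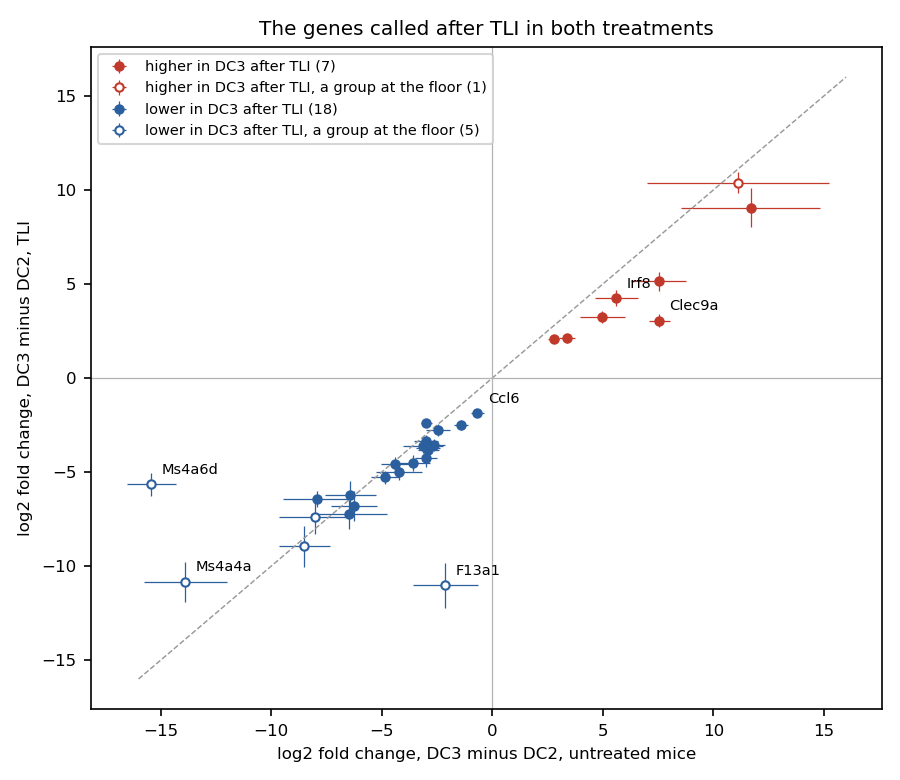
Log2 fold change, DC3 minus DC2, with its SE, in untreated mice (x axis) and after TLI (y axis) for 31 of the 33 called genes, with open symbols where a group is at the floor. The 8 higher genes lie above 0 in both treatments and the 23 lower genes below 0, with F13a1, Ms4a6d and Clec9a away from the line of equal change.

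The difference of the contrasts between TLI and untreated mice passed for 7 genes (0.0357%) in the fit of all 23 libraries, 3 with a positive difference (0.0153% of 19597 genes) and 4 with a negative one (0.0204%), and 1481 had an unadjusted p under 0.05. With the 11 libraries of DC3 and DC2 alone 1 gene passed (Gstp2, 981 unadjusted), and with batch 1 libraries alone 0 passed in edgeR (978 unadjusted). DESeq2 on all libraries called 643.

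Clec9a was the type 1 gene among the 7. In untreated mice it stood at 215 and 252 CPM in DC3 and at 0.993 and 1.49 CPM in DC2, 188-fold apart, against 8.20-fold after TLI (difference of log2 fold changes -4.51, SE 0.48, adjusted p = 0.000416). The DC3 levels overlapped between treatments, and the DC2 levels were 25.9 to 37.5 CPM after TLI. Ms4a6d was at 0 in both untreated DC3 libraries and at 176 and 221 CPM in untreated DC2. The untreated DC2 mean was 1769-fold the mean floor of untreated DC3, a floor that covers counting error only. After TLI the means were 40.7-fold apart (difference 9.84, SE 1.16, adjusted p = 0.00177). The size of that difference depends on how the fit treats the 0 counts of untreated DC3. Ms4a6d in DC3 was thus detected only in the TLI libraries, at 4.60 to 20.8 CPM.

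Cd180, a B cell and myeloid relative of the Toll-like receptors, stood at 53.7 and 64.5 CPM in untreated DC3, 399 and 371 CPM in untreated DC2, and 33.6 to 44.6 and 30.7 to 50.8 CPM in DC3 and DC2 after TLI (difference 2.71, SE 0.40, adjusted p = 0.0127). The populations overlapped after TLI and not before. Tada1, a subunit of a histone acetylation complex, stood at 0.547 and 0.321 CPM in untreated DC3, 80.9 and 67.5 CPM in untreated DC2, 18.3 to 71.4 CPM in DC3 after TLI and 4.65 to 52.8 CPM in DC2 after TLI (difference 8.38, adjusted p = 0.0228). With pool as a block its adjusted p was 0.0765. Gstp2, a glutathione transferase, stood at 46.3 and 35.5 CPM in untreated DC3 and at 0 in both untreated DC2 libraries (difference -13.45, adjusted p = 3.85e-07). After TLI it stood at 29.2 to 37.4 CPM in DC3 and 28.8 to 44.1 CPM in DC2. Gstp2 is near-identical to Gstp1, so its reads are uncertain. Cul4b, a ubiquitin ligase scaffold, stood at 6.80 and 27.4 CPM in untreated DC3 and at 0 in untreated DC2 (difference -11.69, adjusted p = 0.00615). The sizes of the Gstp2 and Cul4b differences depend on how the fit treats the 0 counts of untreated DC2. Cd79b, of the B cell receptor, stood at 195 and 54.7 CPM in untreated DC3 and at 0.191 and 0 CPM in untreated DC2 (difference -10.51, adjusted p = 0.0340). After TLI it stood at 20.6 to 35.8 CPM in DC3 and 15.9 to 58.0 CPM in DC2. With pool as a block its adjusted p was 0.167. For Gstp2, Cul4b and Cd79b the populations overlapped after TLI.

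**Figure D5:**
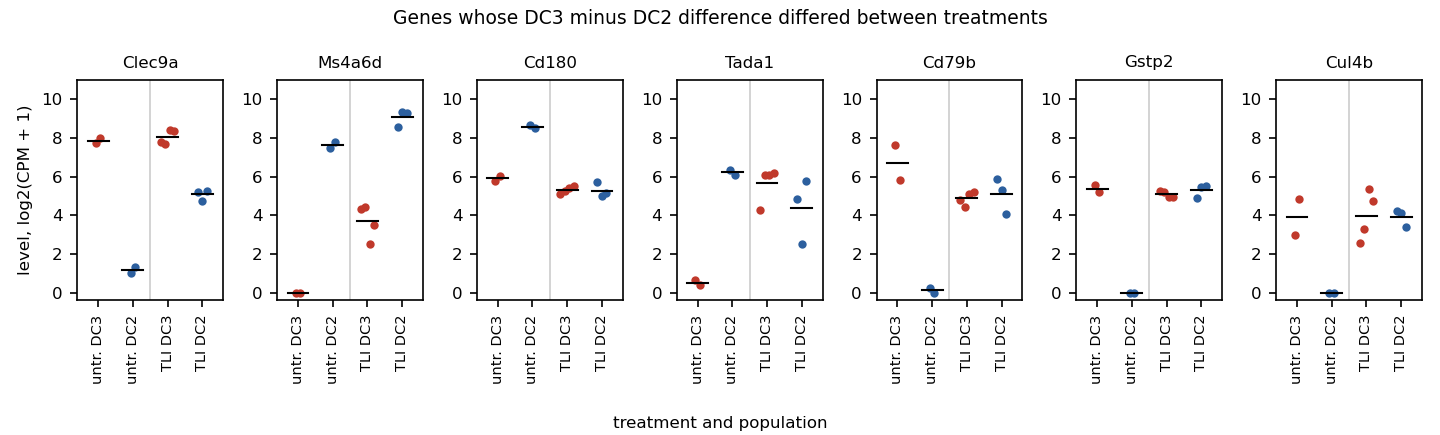
Levels on log2(CPM + 1) of the 7 genes whose DC3 minus DC2 contrast differed between TLI and untreated mice, with a point for each library of the 4 groups and a bar at each group's mean. Clec9a in DC2 is at 0.993 and 1.49 CPM in untreated mice and 25.9 to 37.5 CPM after TLI, and Cd180 in DC2 at 371 and 399 CPM and 30.7 to 50.8 CPM.

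Levels in the CD8-bearing gates of the TLI mice placed the 33 genes relative to DC1a and DC1b. On log2(CPM + 1), the DC1a mean was nearer to the DC3 mean than to the DC2 mean for 6 of the 9 higher genes and for all 24 lower genes. The DC1b mean was nearer to DC3 for 9 of 9 higher genes and nearer to DC2 for 24 of 24 lower genes. For the immunoglobulin segments among the higher genes, the DC1b mean rested mainly on a single library. Igkv12-44 stood at 5306 CPM in DC1b of pool 3 and at most 5.84 CPM in its other pools. In DC1b, Igkv6-15 stood at 1743.5 CPM in pool 4 and at most 21.2 CPM elsewhere. Igkv12-41 stood at 183 CPM in DC1b of pool 3 and at most 9.90 CPM in its other pools. Lyz2 averaged 946 CPM in DC1a and 15158 CPM in DC1b, and Cybb 9.18 and 692 CPM. Rab7b averaged 162 CPM in DC1a and 60.3 CPM in DC1b. The 33 genes were chosen for a difference between DC3 and DC2, so these counts are a description and carry no test.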

How the data were processed

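Cells were sorted from the spleen, and cDNA was made with the SMARTseq v4 UltraLow kit and libraries with KAPA HyperPlus, neither of which marks strand. Per the labels and the study's methods, the authors trimmed reads with Trimmomatic, aligned them to GRCm38 with HISAT2 and obtained estimated counts per gene from StringTie, which they deposited. DESeq2 was their test. The deposited counts are whole numbers and no further rounding was needed. A test on plain counts had been planned, and the same test was run on these estimates.

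Of the 47729 gene identifiers, 47224 had a symbol in GENCODE M21 and 505 had none. All 23 libraries' columns were used. The 7 libraries of DC3 and DC2 after TLI were fitted with edgeR 4.0.16 (R 4.3.3, limma 3.58.1) in a quasi-likelihood model of population and batch, with TMM scaling, edgeR's expression filter, Benjamini-Hochberg adjustment over all genes tested and a threshold of 0.05. Untreated contrasts and the difference between treatments came from all 23 libraries in 8 groups with batch. The scripts were tested on simulated data. Levels are CPM on TMM-scaled library sizes of 21107794 to 35122370 counts, and 3 counts was taken as the floor, for counting error only. DESeq2 1.42.0, other scalings and filters, other sets of libraries, each batch alone and each library left out were the alternatives.

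Same-numbered DC3 and DC2 libraries share a pool of mice, so pool number pairs them. Their deviations from the group means correlated at 0.232, 0.137 and 0.132 in pools 1, 3 and 4, and different pools of the same batch correlated at 0.124 to 0.324. Pools are separate mice. The fit of population and batch treated libraries of the same pool as independent, so its p-values measure the spread between libraries. Fits with more groups of libraries did the same, with the spread shared over all groups. With pool as a block, p-values rest on differences within pools, and 1 of the 33 genes then passed.

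The gene lists (43 lists, 709 genes) and the libraries compared were chosen with earlier results of these data known. Named genes were the 12 largest differences in each direction among genes past the threshold with a symbol, a mean of at least 5 CPM and the same direction in pools 1, 3 and 4, up to 4 members past the threshold or otherwise the first members of each list, the sorting genes, and the 5 largest differences between treatments in each direction. Other genes named, among them the rest of the 33, were chosen after their values were seen. Promoter windows were read from RefSeq tables with Python 3.11.15.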

Additional observations from a re-analysis of the deposited data

Results flagged for a closer look

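Single DC3 libraries stood apart from the other 3 in 11 of 85 genes, by the size of the gap to the nearest library. The cutoff is set so that chance marks about 1 in 20 groups of normally distributed values from a single population. CPM of libraries from different batches need not follow that rate, so the count carries no test. The groups of 3 DC2 libraries were too small for the same comparison. In pool 1, the red cell genes Hba-a1 (46753 CPM against 147 to 6162) and Hba-a2 (38045 CPM against 122 to 5059) and the neutrophil genes S100a8 (38.4 CPM against 0.959 to 2.85) and S100a9 (36.0 CPM against 1.24 to 1.65) were high. Gbp3 was also high in pool 1, at 15.1 CPM against 0 to 0.924, and Tada1 was low there, at 18.3 CPM against 65.9 to 71.4. In pool 2, Flt3 (208 CPM against 94.7 to 107), H2-Ab1 (18275 CPM against 4322 to 6580) and Ctsb (686 CPM against 148 to 192) were high. In pool 3, Cst3 was low, at 18855 CPM against 22891 to 23371 and still above every DC2 library, and Mmp2 was at 6.48 CPM against 0 in the others.

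The DC3 minus DC2 difference itself differed between TLI and untreated mice, by the test of that difference, in 7 genes. The differences of log2 fold changes were 9.84 for Ms4a6d, 8.38 for Tada1 and 2.71 for Cd180. They were -13.45 for Gstp2, -11.69 for Cul4b, -10.51 for Cd79b and -4.51 for Clec9a. Sizes for Ms4a6d, Gstp2 and Cul4b depend on how the fit treats 0 counts in an untreated group. Over 17 alternatives, Gstp2 passed in 16, Clec9a and Ms4a6d in 15, Cul4b in 13, Cd180 in 11, Tada1 in 9 and Cd79b in 7. With batch 1 libraries alone, where both treatments share a batch, adjusted p-values of the 7 were 0.363 to 0.906. Signs were the same in each alternative.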

How the results depend on the processing

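The number of calls (33, with 9 higher, 24 lower and 13 in the gene lists) was within 1.5 times under DESeq2-type size factors, library totals and no batch term, and with immunoglobulin genes left out. DESeq2's test gave 1312 (416 higher, 896 lower, 153 in lists), the unfiltered genes 111 (28, 83, 53), a minimum of 10 counts per library 100 (29, 71, 45), all 15 TLI libraries 198 (70, 128, 66) and all 23 libraries 268 (86, 182, 78). Batch 1 alone gave 0 (0, 0, 0) and batch 2 alone 1 (1, 0, 0). With pool as a replicate block 2 genes passed (2 higher, 0 lower, 0 in lists). Leaving out each library gave 0 to 22 calls (0 to 6 higher, 0 to 17 lower, 0 to 9 in lists). The cause of these shifts was not tested, beyond the fewer libraries in some fits. Of the 33 genes, 33 were shared with the unfiltered fit, 25 with the stricter minimum, 33 with DESeq2-type size factors, 32 with library totals, 30 without immunoglobulin genes, 18 with no batch term, and 0 to 14 when a library was left out. The median log2 fold change of all genes was -0.27 in DESeq2, -0.29 without a filter and 0.12 in batch 1 alone. No fold change of a called gene changed sign.

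For the difference between treatments, 7 calls (3 positive, 4 negative) became 20 (17 negative) without a filter, 1 (0 positive, 1 negative) with the 11 libraries of DC3 and DC2, 0 (0 and 0) with batch 1 libraries and 643 (280 and 363) in DESeq2. With the replicate block 6 passed, 5 of them shared. Leaving out each library gave 5 to 26 (1 to 17 positive, 3 to 9 negative), with 26 without DC2 of TLI pool 1 and 12 without DC2 of untreated pool 2. Precision at low levels is limited by the floor of 0.0861 to 0.147 CPM, and by 3 DC2 libraries.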
